A study of Zea mays with 6 samples.

Results

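The transcripts described here are those of 6 circadian clock genes of maize (Zea mays), followed in seedling shoots of the wild type and of a knockout of Gβ, a subunit of the heterotrimeric G proteins that pass on signals from receptors at the cell surface. The members were chosen by identifier, 6 of the 44146 identifiers measured. They are CCA1 (Zm00001d024546), LHY (Zm00001d049543), TOC1a (Zm00001d017241), TOC1b (Zm00001d051114), gigz1a (Zm00001d008826) and gigz1b (Zm00001d039589). The deposited tables carry B73 RefGen_v4 identifiers without names, so the names are those given with the list, and no other clock gene could be added by name. Wild-type libraries (WT) and libraries of the knockout (titled KO1, genotype GBetaKO) numbered 3 each, described as biological replicates. All seedlings were untreated, at the 3-leaf stage and with roots removed, and were grown in what the labels call normal conditions. The labels give no hour of harvest and no light regime. They name a single knockout line, and what Gβ itself contributes cannot be told apart from anything else in which this line departs from the wild type. Where nothing says that replicates came from separate plants, a p-value measures the spread between these libraries, which may be technical.

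The plant clock is a loop of genes that repress each other at different hours of the day. CCA1 and LHY are related MYB transcription factors whose transcripts peak around dawn. In Arabidopsis they repress evening genes, among them TOC1, a pseudo-response regulator that represses CCA1 and LHY in turn, and GIGANTEA, a large protein that links the clock to the control of flowering by day length. Maize has a pair of TOC1 genes and a pair of GIGANTEA genes, gigz1a and gigz1b. Morning genes below are CCA1 and LHY, and evening genes are the other 4.

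Levels are FPKM values, fragments scaled to a kilobase of gene and to a factor for each library. The reads behind them, worked back from the values, numbered 14758013 to 17666151 per library over all genes. All 6 clock genes passed the filter of at least 1 FPKM in at least 3 libraries, as did 23232 genes in all. The lengths behind the values were 2255 bases for CCA1, 4037 for LHY, 2521 for TOC1a, 2611 for TOC1b, 7819 for gigz1a and 10451 for gigz1b. Whether these lengths include introns is not given in the sources used here, and a length with introns would lower the FPKM of a gene. The targeted Gβ gene and the markers of the shoot were not analysed here, because the identifiers carry no names.

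In FPKM the morning genes were the most abundant of the 6 and the TOC1 genes the least. In the wild type CCA1 stood at 115 ± 11.1 FPKM and LHY at 105 ± 9.25 FPKM (mean ± SD, n = 3 for this and all group means below). These means lay within the spread between libraries, but CCA1 exceeded LHY in every wild-type library. Next came gigz1a at 56.7 ± 3.31, gigz1b at 12.1 ± 0.522, TOC1b at 4.91 ± 0.623 and TOC1a at 1.26 ± 0.273 FPKM. Each of these last 4 levels lay apart from its neighbours by more than their spread. The place of the GIGANTEA genes rests on their long lengths, whose makeup is not known: in reads, the wild-type libraries together held 19033 for gigz1a, 18338 for LHY and 11118 for CCA1. Over all 6 libraries 3.71% of the tested genes had a higher mean FPKM than CCA1, and 89.9% a higher one than TOC1a. The order of the means was the same in the knockout except that LHY, at 125 ± 30.1 FPKM, lay above CCA1, at 116 ± 39.8 FPKM. That difference lay within the spread between libraries, and knockout replicate 2 went the other way.

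**Figure D1:**
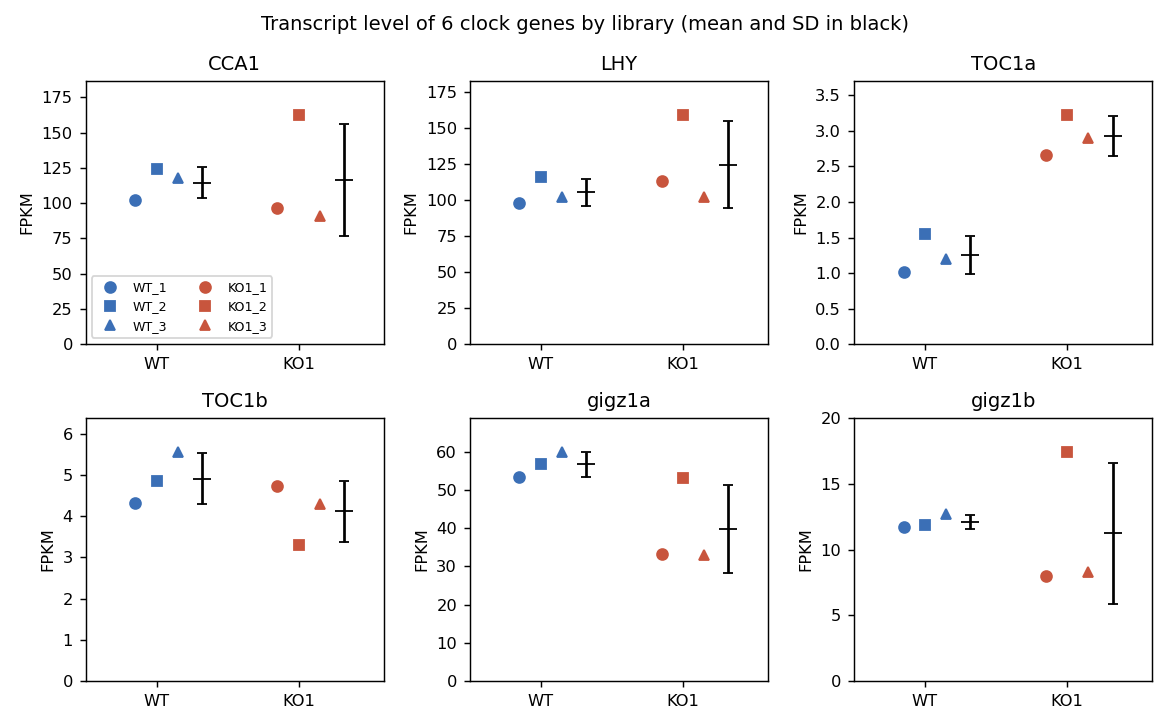
FPKM of each clock gene (vertical axes, linear from 0) in the 3 WT and 3 KO1 libraries, 1 panel per gene, with the group mean and SD in black. The KO1 libraries lie above all WT libraries for TOC1a, and KO1 replicate 2 lies well above the other KO1 libraries for CCA1, LHY, gigz1a and gigz1b.

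Between genotypes, a single clock gene passed the test. TOC1a was called higher in the knockout, and none of the 6 was called lower. Over all tested genes 31.2% passed, 15.2% higher and 16.0% lower in the knockout, so 1 of 6 is no more than the share among genes in general. TOC1a was also the only one of the 6 with an unadjusted limma p below 0.05, which 10046 of the 23232 tested genes had. The number of clock genes called was the same with voom on the recovered reads. The groups did not overlap for 2 of the 6 genes, TOC1a and gigz1a, against 49.4% of all tested genes. The median log2 fold change of the 6 genes was -0.10, and that of all tested genes 0.02. Calls rest on limma applied to log2(FPKM + 1), with Benjamini-Hochberg adjustment over all tested genes and a threshold of 0.05.

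Of the TOC1 pair, TOC1a rose and TOC1b did not pass the test. TOC1a was at 1.01, 1.55 and 1.20 FPKM in wild-type replicates 1, 2 and 3, and at 2.66, 3.22 and 2.90 FPKM in knockout replicates 1, 2 and 3. Every knockout library lay above every wild-type library, and the knockout mean of 2.93 ± 0.281 FPKM was 2.33 times the wild-type mean. On the log2(FPKM + 1) scale, which understates the change of so weak a gene, it rose by 0.80 ± 0.18 (SE; 95% interval 0.38 to 1.23; limma adjusted p = 0.016). The values rest on few reads, 36, 60 and 41 in the wild type against 132, 126 and 131 in the knockout. The highest wild-type value had an exact 95% Poisson counting interval of 1.18 to 1.996 FPKM and the lowest knockout value one of 2.22 to 3.15 FPKM, which covers counting error only. The call was lost without wild-type replicate 1 (log2 fold change 0.73, limma adjusted p = 0.066), without knockout replicate 3 (0.81, adjusted p = 0.065) and after quantile normalization (0.52, adjusted p = 0.084). In whole shoots, a change in the number of cells that express a gene and a change in its RNA per cell cannot be told apart.

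TOC1b stood at 4.32, 4.87 and 5.56 FPKM in wild-type replicates 1 to 3 and at 4.74, 3.31 and 4.30 FPKM in knockout replicates 1 to 3. The groups overlapped, with knockout replicate 2 the lowest of the 6 libraries. Its log2 fold change was -0.21 ± 0.18 (SE; 95% interval -0.65 to 0.23; limma adjusted p = 0.42). The summed level of both TOC1 genes was 5.33 to 6.77 FPKM in the wild type and 6.52 to 7.40 FPKM in the knockout. TOC1a made up 19.0%, 24.2% and 17.8% of that sum in wild-type replicates 1 to 3, and 35.9%, 49.3% and 40.3% in knockout replicates 1 to 3. In knockout replicate 2 both copies were thus nearly level. The log2 ratio of TOC1a to TOC1b (FPKM + 1) was -1.39 ± 0.19 in the wild type and -0.37 ± 0.32 in the knockout, a difference of 1.02 with no overlap. An exact two-sided permutation test gave p = 0.1, the smallest that 3 against 3 allows (0.1 after adjustment over 3 pairs). Taken singly, TOC1a did not overlap between genotypes either, nor did 49.4% of all tested genes.

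**Figure D2:**
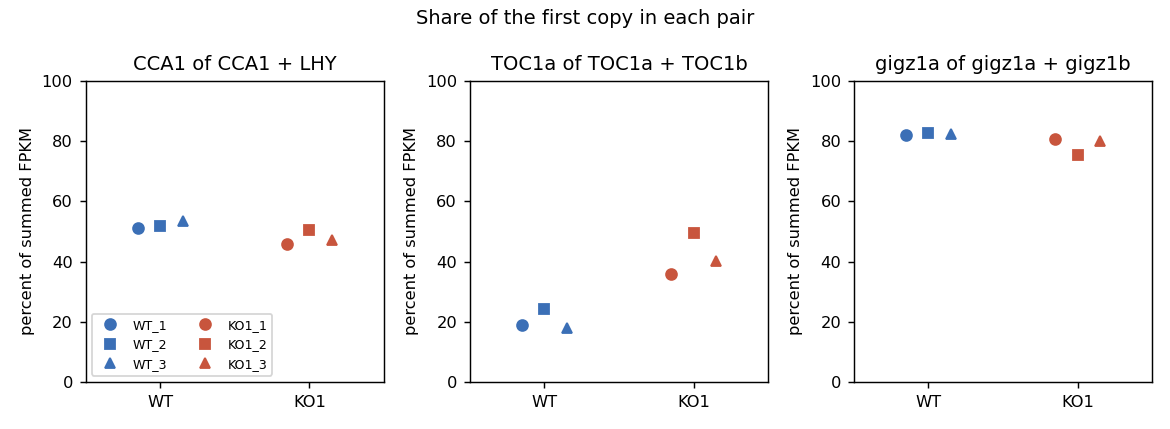
Share of the first gene in the summed FPKM of each pair (percent, vertical axes from 0 to 100) by library, for CCA1 with LHY, TOC1a with TOC1b and gigz1a with gigz1b. The TOC1a share lies between 17.8% and 24.2% in WT and between 35.9% and 49.3% in KO1. The CCA1 share lies between 51.1% and 53.4% in WT and between 46.0% and 50.5% in KO1. The gigz1a share lies between 82.0% and 82.8% in WT and between 75.3% and 80.6% in KO1.

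Both GIGANTEA genes were lower in knockout replicates 1 and 3 than in any wild-type library, and knockout replicate 2 stood well above these. For gigz1a the wild-type replicates 1, 2 and 3 held 53.3, 56.9 and 59.9 FPKM, and the knockout replicates 33.3, 53.0 and 32.9 FPKM. All knockout libraries lay below all wild-type libraries, but replicate 2 only just. The log2 fold change of -0.54 ± 0.23 (SE; 95% interval -1.08 to 0.01) did not pass the test (limma adjusted p = 0.12). The values of gigz1b were 11.7, 11.8 and 12.7 FPKM in the wild type, a narrow range, and 7.99, 17.4 and 8.26 FPKM in the knockout. Knockout replicate 2 was here the highest of all 6 libraries, and replicates 1 and 3 the lowest. Its log2 fold change was -0.18 ± 0.30 (SE; 95% interval -0.90 to 0.53; limma adjusted p = 0.68).

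The outcome for both GIGANTEA genes turned on that library. Without knockout replicate 2, gigz1a fell by 0.76 ± 0.15 on the log2 scale (SE; limma adjusted p = 0.020), its wild-type mean being 1.71 times the mean of the other knockout libraries. In the same fit gigz1b fell by 0.52 ± 0.14 (SE; limma adjusted p = 0.044), with a wild-type mean 1.49 times theirs. TOC1a passed as well, so that 3 of the 6 genes were called, 1 higher and 2 lower, while 14.2% of all tested genes were called higher and 15.4% lower. The knockout group then has 2 libraries. Replicate 2 was left out with its values known, so these p-values describe the dependence on it and are no separate test. Without knockout replicate 1 or 3 instead, gigz1a did not pass (limma adjusted p = 0.31 and 0.32), nor did gigz1b (0.998 and 0.97). After scaling by total reads, which moved the median log2 fold change of all tested genes to 0.21, gigz1b was at 0.01 (limma adjusted p = 0.98) and gigz1a at -0.33 (0.26) with all 6 libraries, and neither passed.

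Within the pair, gigz1a held most of the signal. Its share of the summed level was 82.0%, 82.8% and 82.5% in wild-type replicates 1 to 3 and 80.6%, 75.3% and 79.9% in knockout replicates 1 to 3. The sum itself was 65.0 to 72.6 FPKM in the wild type, 41.2 FPKM in both knockout replicates 1 and 3, and 70.4 FPKM in knockout replicate 2. The log2 ratio of gigz1a to gigz1b was 0.36 lower in the knockout, with no overlap (exact two-sided permutation p = 0.1, the smallest possible, and 0.1 after adjustment over 3 pairs). By itself gigz1a did not overlap either, like 49.4% of all tested genes.

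The morning genes did not differ between genotypes beyond their spread. CCA1 was at 102, 124 and 118 FPKM in wild-type replicates 1, 2 and 3 and at 96.4, 162 and 90.6 FPKM in knockout replicates 1, 2 and 3. The knockout libraries surrounded those of the wild type, with replicate 2 above and replicates 1 and 3 below all of them. The log2 fold change was -0.02 ± 0.28 (SE; 95% interval -0.69 to 0.64; limma adjusted p = 0.96). LHY was at 98.0, 116 and 102 FPKM in the wild type and at 113, 159 and 102 FPKM in the knockout. Only knockout replicate 2 lay outside the wild-type range. Its log2 fold change was 0.22 ± 0.23 (SE; 95% interval -0.34 to 0.78; limma adjusted p = 0.52). The sign for CCA1 depended on scaling, with 0.19 after scaling by total reads, close to the median of all genes there, and 0.26 after quantile normalization. LHY was at 0.43 after scaling by total reads (limma adjusted p = 0.21). After quantile normalization it was at 0.50 (95% interval -0.06 to 1.06; limma adjusted p = 0.15). The intervals without such scaling leave room for differences of over 1.5-fold in either direction for CCA1, and of up to 1.71-fold higher for LHY.

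CCA1 made up 51.1%, 51.7% and 53.4% of their summed FPKM in wild-type replicates 1 to 3 and 46.0%, 50.5% and 47.1% in knockout replicates 1 to 3. CCA1 thus exceeded LHY in every wild-type library and in knockout replicate 2, and LHY exceeded CCA1 in knockout replicates 1 and 3. The log2 ratio was 0.24 lower in the knockout (exact two-sided permutation p = 0.1, the smallest possible; 0.1 after adjustment over 3 pairs). The groups did not overlap, but knockout replicate 2 came close to wild-type replicate 1, and a ratio to CCA1 separates the genotypes for 34.3% of all other tested genes and a ratio to LHY for 41.5%.

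**Figure D3:**
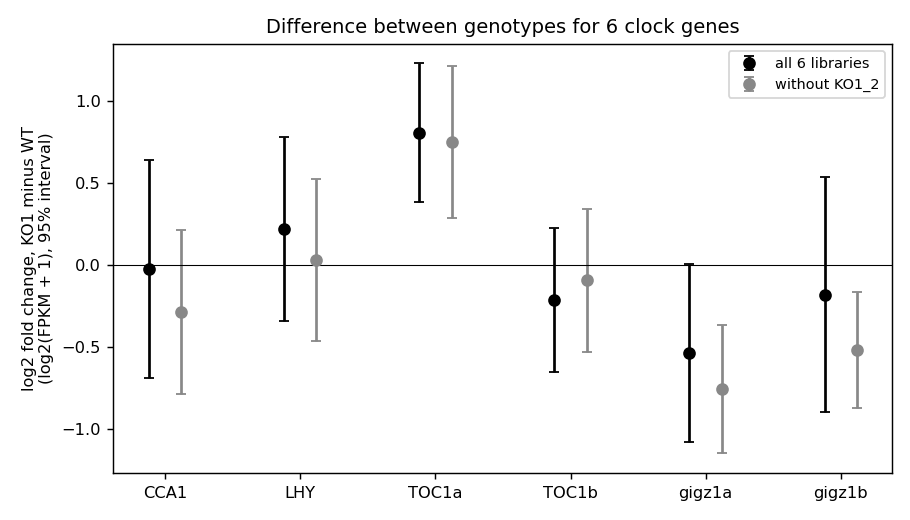
Log2 fold change of each clock gene between genotypes (KO1 minus WT, on log2(FPKM + 1)) with its 95% interval from limma, with all 6 libraries in black and without KO1 replicate 2 in grey. With all libraries only the interval of TOC1a lies apart from 0, and without KO1 replicate 2 those of gigz1a and gigz1b also do.

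The clock genes were also compared between libraries of the same genotype. For each library the log2(FPKM + 1) value was set against the mean of the other 2 libraries of its group. Over all tested genes the median size of this departure was 0.40 in wild-type replicate 3 and 0.32 in knockout replicate 2, against 0.19 to 0.27 in the other 4 libraries. A single library against a pair permits no test, so the departures are given as a description beside those of all tested genes.

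Wild-type replicate 3 stood close to its group in every clock gene. Its departures ranged from -0.06 for LHY to 0.23 for TOC1b, 4 upward and 2 downward, with a median size of 0.08. None of the 6 genes departed 2-fold, while 9.46% of the tested genes lay at least 2-fold above and 6.82% at least 2-fold below in that library. For CCA1, LHY and TOC1a the library lay between the other wild-type libraries. The directions depend on scaling. The library total behind its FPKM values was 0.792 times its recovered reads, against 0.956 to 1.11 in the other libraries, and after scaling by total reads all 6 genes lay lower in it than in its group, by up to 0.35 for LHY.

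Knockout replicate 2 departed upward in 5 of the 6 genes, all but TOC1b, while the median departure of all tested genes there was 0.03. The departure was 0.79 for CCA1, 0.56 for LHY, 0.66 for gigz1a, 1.01 for gigz1b and 0.16 for TOC1a, and it was -0.36 for TOC1b. In that library 10.7% of the tested genes departed upward at least as far as CCA1, 17.1% as far as LHY, 13.8% as far as gigz1a and 6.78% as far as gigz1b. For TOC1a the share was 38.5%, and 20.2% of the tested genes departed downward at least as far as TOC1b. The median size of the departures of the 6 genes was 0.61. At least 2-fold above its group stood 1 of the 6 clock genes, gigz1b, with 6.96% of all tested genes. Below it stood none of the 6, with 3.14% of all. In CCA1, LHY, gigz1a and gigz1b the gap between knockout replicates 1 and 3 was only 0.01 to 0.15. Under the other pseudocounts and scalings the departures of these 4 genes stayed upward, the smallest being 0.38 for LHY. The departure of TOC1a was 0.02 after scaling by total reads.

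**Figure D4:**
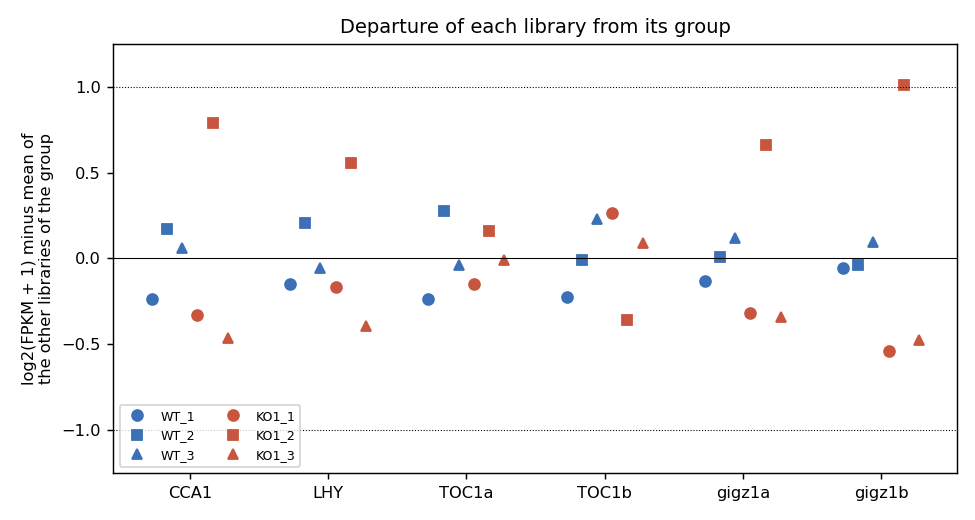
Departure of each library from the mean of the other libraries of its group (log2(FPKM + 1), vertical axis) for each clock gene, with dotted lines at a 2-fold departure. KO1 replicate 2 (red squares) lies at 0.56 to 1.01 for CCA1, LHY, gigz1a and gigz1b and at -0.36 for TOC1b, WT replicate 3 (blue triangles) stays within 0.23, and KO1 replicates 1 and 3 lie low partly because their comparison includes replicate 2.

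As a measure of morning against evening genes, the mean log2(FPKM + 1) of CCA1 and LHY minus that of the 4 evening genes was taken in each library. It was 3.45, 3.56 and 3.40 in wild-type replicates 1, 2 and 3 and 3.56, 3.80 and 3.43 in knockout replicates 1, 2 and 3. The groups overlapped, with means of 3.47 ± 0.08 and 3.60 ± 0.19. Wild-type replicate 3 lay 0.10 below its group. Knockout replicate 2 lay 0.30 above its group, the highest of all 6 libraries. In knockout replicate 2 the mean of the morning genes was higher by 0.67 and that of the evening genes by 0.37. Among the evening genes the departure was 1.01 for gigz1b, 0.66 for gigz1a and 0.16 for TOC1a, but -0.36 for TOC1b. The difference of 0.30 rested on which evening genes were counted, being 0.06 without TOC1b and 0.52 without gigz1b. In wild-type replicate 3 the mean of the morning genes departed by 0.003 and that of the evening genes by 0.10. After quantile normalization CCA1 (-0.16) and LHY (-0.28) lay lower in that library and 3 of the 4 evening genes higher, by at most 0.20, with morning minus evening 0.25 below its group.

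Ratios between single morning and evening genes, 8 in all and chosen after the values had been seen, separated the genotypes in 4 cases (FPKM + 1). The ratio of CCA1 to gigz1a in FPKM was 1.92, 2.18 and 1.96 in wild-type replicates 1 to 3 and 2.90, 3.06 and 2.75 in knockout replicates 1 to 3. Knockout replicate 2, which stood apart in both genes, did not stand apart in their ratio. The same held for LHY to gigz1a, with 1.84, 2.03 and 1.71 in the wild type and 3.41, 2.99 and 3.09 in the knockout. The log2 ratio (FPKM + 1) was higher in the knockout by 0.51 for CCA1 and by 0.75 for LHY. For each the exact two-sided permutation p was 0.1, the smallest possible, and 0.2 after adjustment over the 8 ratios.

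Toward TOC1a the morning genes went the other way. The ratio of CCA1 to TOC1a was 92.8 ± 11.4 in the wild type and 39.3 ± 9.94 in the knockout, and that of LHY to TOC1a 85.5 ± 11.1 and 42.3 ± 7.12 (exact two-sided permutation p = 0.1 for each, 0.2 after adjustment). At a pseudocount of 5, which shrinks the change of the weak TOC1a, these log2 ratios differed by -0.36 and -0.13 and no longer separated the genotypes (exact permutation p = 0.4 and 0.5). The ratios to TOC1b and to gigz1b overlapped between genotypes, with exact two-sided permutation p from 0.2 to 1. Beside the shares of 34.3% and 41.5% over all other tested genes, 2 of 4 evening genes each is not far from what genes in general give.

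**Figure D5:**
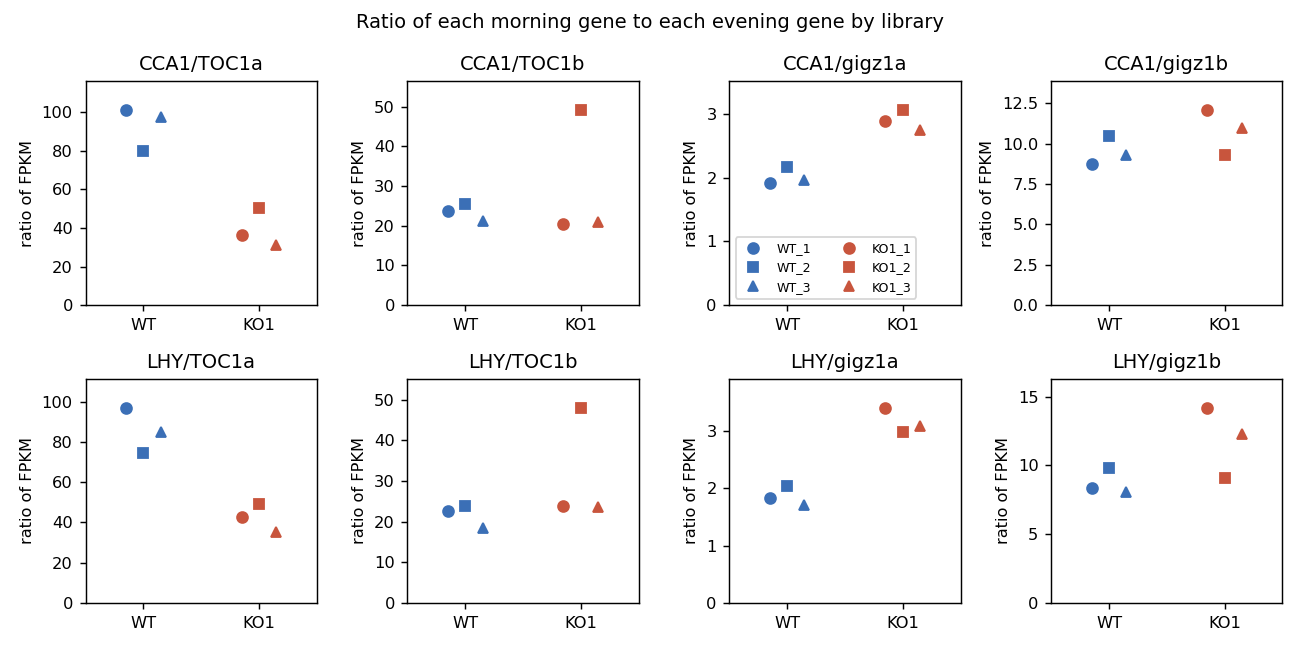
Ratio of the FPKM of each morning gene (CCA1 above, LHY below) to each evening gene (vertical axes, linear from 0) by library. The KO1 libraries lie above the WT libraries in the ratios to gigz1a, at 2.75 to 3.41 against 1.71 to 2.18, and below them in the ratios to TOC1a.

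The pattern across the 6 libraries was compared between genes by the root mean square difference of their log2(FPKM + 1) values, each centred on its own mean. LHY was the 129th nearest of 23231 genes to CCA1, at a distance of 0.15, and gigz1b the 89th nearest, at 0.14. From gigz1b, CCA1 was the 49th nearest and gigz1a the 374th nearest. TOC1a and TOC1b were far from each other, at a distance of 0.55, and 47.7% of the genes were at least as near to TOC1a as TOC1b was. A morning gene and an evening gene, CCA1 and gigz1b, were thus the nearest pair among the 6. The points share 6 libraries, and the high value of knockout replicate 2 weighs on each distance.

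Among 11400 other genes with a mean of at least 10 FPKM, Zm00001d026097 was nearest to the mean of CCA1 and LHY, at a distance of 0.04. It was at 16.0, 18.6 and 18.9 FPKM in wild-type replicates 1 to 3 and at 17.2, 26.2 and 15.6 FPKM in knockout replicates 1 to 3. Zm00001d050868 followed at 0.06. Nearest to the mean of the 4 evening genes was Zm00001d016553, at 44.8, 47.4 and 47.6 FPKM in the wild type and 43.3, 53.0 and 43.4 FPKM in the knockout, and next came Zm00001d048410, both at 0.04. In each of these 4 knockout replicate 2 was the highest library, as in the means they were chosen to match. This follows from the choice and is no separate result. The files pair none of these identifiers with a name.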

How the data were processed

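Paired-end reads of 150 bp came from 6 RNA libraries, per the labels. The authors deposited FPKM values for 44146 identifiers per library. TopHat2, Cufflinks and Cuffdiff and the build B73 RefGen_v4 are named in the submitters' processing notes. Their versions, the annotation and the strandedness are not given there, so near-identical copies and overlapping genes could share reads. The unit was taken from these tools and the values. Whole reads were worked back from the steps between FPKM values for all 31946 identifiers above 0 (within 0.0001 reads, plus a small share of the count). Reads and gene length that share a common factor come out too low. Depth was 14758013 to 17666151 reads, and counting intervals are exact Poisson at 95%. Knockout was compared with wild type by limma 3.58.1 in R 4.3.3 on log2(FPKM + 1), with trend and robust settings, in the 23232 genes of at least 1 FPKM in at least 3 libraries. Ratios were compared by exact permutation tests with scipy 1.17.1. Scripts were tested on simulated data. The 6 genes, the lists and the tests were chosen with earlier results of these data known. The rule for named genes took all 6, and the 2 identifiers of at least 10 FPKM nearest to the morning mean and the 2 nearest to the evening mean. Other clock genes, tissue markers and promoters were not analysed here, because the reference table carries none of the identifiers.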

Additional observations from a re-analysis of the deposited data

How the results depend on the processing

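The number of clock genes called was 1, and 0 at a mean of at least 5 FPKM (which leaves out both TOC1 genes), after quantile normalization, at an adjusted p below 0.01 and with the replicate block. It was 3 with array weights and on 4 libraries (wild-type replicate 3 and knockout replicate 2 both left out), and 0 to 3 with each library left out. Of 23232 tested genes, array weights called 7501 higher and 7475 lower, and the fit on 4 libraries 5894 and 6058. In neither were clock genes called more often than genes in general. With each library left out, 2021 to 4197 genes were called higher and 2191 to 4417 lower. The log2 fold change of TOC1a was 0.52 (limma adjusted p = 0.084) after quantile normalization and 0.80 with the replicate block (0.063) and at the stricter threshold of 0.01 (0.016), and 0.73 to 0.90 with each library left out. Over all alternatives it lay between 0.34 and 1.21. The deviations of same-numbered libraries correlated at 0.15, -0.37 and -0.20 across genes, and those of differently numbered ones at -0.37 to 0.47. Same-numbered libraries were thus not more alike than others. Whether they shared a batch was not tested. For gigz1a the change was -0.67 (0.0012) with array weights and -0.72 (0.0034) on the 4 libraries, and -0.76 to -0.42 with each left out. For gigz1b it was -0.43 (0.023) and -0.49 (0.019), with 0.013 after scaling by total reads and -0.52 to -0.0012 with each left out. CCA1 changed sign, to 0.26 after quantile normalization and 0.19 after scaling by total reads, and ran from -0.29 to 0.13 with each library left out. LHY and TOC1b kept their direction and passed under no alternative, with LHY highest at 0.50, after quantile normalization. Morning minus evening was 3.73 in the wild type and 3.79 in the knockout at a pseudocount of 0.1, 2.84 and 3.04 at 5, and 3.32 and 3.78 after quantile normalization. It was 2.75 and 3.16 without TOC1a, 3.21 and 3.28 without TOC1b, 4.31 and 4.27 without gigz1a, and 3.60 and 3.68 without gigz1b. Leaving out a gene of another level shifts both groups. The gap between the groups changed too, and without gigz1a the knockout mean lay below that of the wild type. After quantile normalization the departure of morning minus evening was 0.27 in wild-type replicate 2 and -0.25 in replicate 3. In knockout replicate 2 it was 0.062 without TOC1b and 0.52 without gigz1b. The ratios within pairs kept their sign throughout. The cause was not tested for these changes where none is given. TOC1a, with 36 to 132 reads, is the gene that depth limits most.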
